A study of Mus musculus with 15 samples.

Results

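RNA that came down with an antibody against the DNA methyltransferase Dnmt1 was compared between mouse tail fibroblasts labelled Hom and WT for a Dnmt1 mutation. The members are the Dnmt1 RNA immunoprecipitation (RIP) libraries of these genotypes, 2 Hom and 2 WT, which make 4 of the 15 libraries of the study. They were chosen by their titles and genotype labels. The other libraries are 2 Dnmt1 RIP libraries from Het fibroblasts, RIP libraries made with an antibody against 5-methylcytosine (m5C) from fibroblasts and cortex, and 1 input library for each source. Per the labels' protocols, the fibroblast lines were derived from tails of WT, Het and Hom littermates of 1 sex, the cells were fixed with 1% formaldehyde, and a rabbit antibody against Dnmt1 was used. The labels name no allele for the mutation, give no age, and do not say whether the 2 libraries of a genotype came from separate lines or cultures. The p-values below therefore measure the spread among these particular libraries and nothing wider, and that spread may be technical. No input library of each genotype was used here, so a difference in the amount of an RNA in the cells and a difference in its recovery with Dnmt1 cannot be told apart. In the same way, fewer cells of a type and less RNA per cell cannot be told apart.

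Dnmt1 is the maintenance DNA methyltransferase, which restores methylation at CpG dinucleotides of the new strand after DNA replication, guided by the hemimethylated-DNA reader Uhrf1. In fibroblasts it keeps imprinted loci, germline genes and repeats methylated through cell division. The enzyme also binds RNA, and RIP followed by sequencing records which transcripts are recovered with it, on top of a background of RNA that sticks to the beads or the antibody.

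The libraries were shallow. Gene counts totalled 1029457 and 1362757 in Hom libraries 1 and 2, against 217173 and 463133 in WT libraries 1 and 2. Lars2, Gm42418, Gm26917 and Gm10800 took 63.5% and 12.7% of these counts in Hom, against 11.0% and 25.4% in WT, and were kept out of every total used for scaling. The remaining totals were 376192 and 1190173 in Hom, against 193196 and 345638 in WT. Levels are given as CPM, that is counts scaled to a total of 1000000 over these remaining genes. A gene with no count in a library could have up to 3 counts, or 7.97 and 2.52 CPM in the Hom libraries and 15.5 and 8.68 CPM in the WT libraries. After each library was thinned to 193196 counts, 21062 and 20018 genes had a count in Hom, against 17854 and 19985 in WT. The fibroblast input, used below for comparison, was 1 library and shallower still. Lars2, Gm42418, Gm26917 and Gm10800 took 58.4% of its counts, and 95107 remained. It had a count in 6006 genes, and 3 counts stood for 31.5 CPM.

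Beside the fibroblast m5C libraries, the Hom and WT libraries held little RNA of fibroblast marker genes and much RNA of neuronal ones. Col1a1, which encodes the main chain of collagen I and marks fibroblasts, was at 346 and 1344 CPM in Hom, against 171 and 955 CPM in WT. The Het libraries of the same assay held 14266 and 4049 CPM of it, and the fibroblast input 1051 CPM. The fibroblast m5C libraries of Hom, Het and WT 2 held 16008 to 20428 CPM. Camk2a, a kinase of excitatory neurons, was at 1342 and 844 CPM in Hom, against 1548 and 932 CPM in WT. The Het libraries held 896 and 870 CPM of it and the fibroblast input 673 CPM. It reached 2860 CPM in the WT cortex m5C library and 147 to 251 CPM in the fibroblast m5C libraries of Hom, Het and WT 2. Over the whole lists, the 18 neuron markers summed to 7188 and 5533 CPM in Hom, against 8064 and 5604 CPM in WT, and none of them was at 0 in any of these libraries. The 14 fibroblast markers summed to 1454 and 3104 CPM in Hom, against 1040 and 2575 CPM in WT. In the Het libraries the neuron markers summed to 5211 and 4913 CPM, near the second Hom and WT libraries, and the fibroblast markers to 22612 and 8779 CPM, above all 4. The fibroblast input held 3722 CPM of neuron markers and 2282 CPM of fibroblast markers, and the fibroblast m5C libraries of Hom and WT 2 held 1543 and 1341 CPM of neuron markers and 28717 and 33953 CPM of fibroblast markers. In the WT cortex m5C library the same lists summed to 13689 CPM for neurons and 664 CPM for fibroblasts. S100a4, a fibroblast marker, had 0 and 3 counts in Hom, against 1 and 0 in WT. It had 1 and 3 counts in Het and 0 in the fibroblast input, too few to compare libraries. Mbp, which encodes a myelin protein, was at 1042 and 781 CPM in Hom, against 983 and 697 CPM in WT. The 15 macrophage markers summed to 311 and 1367 CPM in Hom, against 217 and 1638 CPM in WT. Set beside the fibroblast m5C libraries, both Hom and both WT libraries thus went against a tail fibroblast label in these markers. The fibroblast input did not show this contrast. Its fibroblast sum was below those of the second Hom and WT libraries, and its neuron sum below those of all 4. The neuron and fibroblast sums overlapped between the genotypes. The part of these marker transcripts in the results below was not tested.

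**Figure D1:**
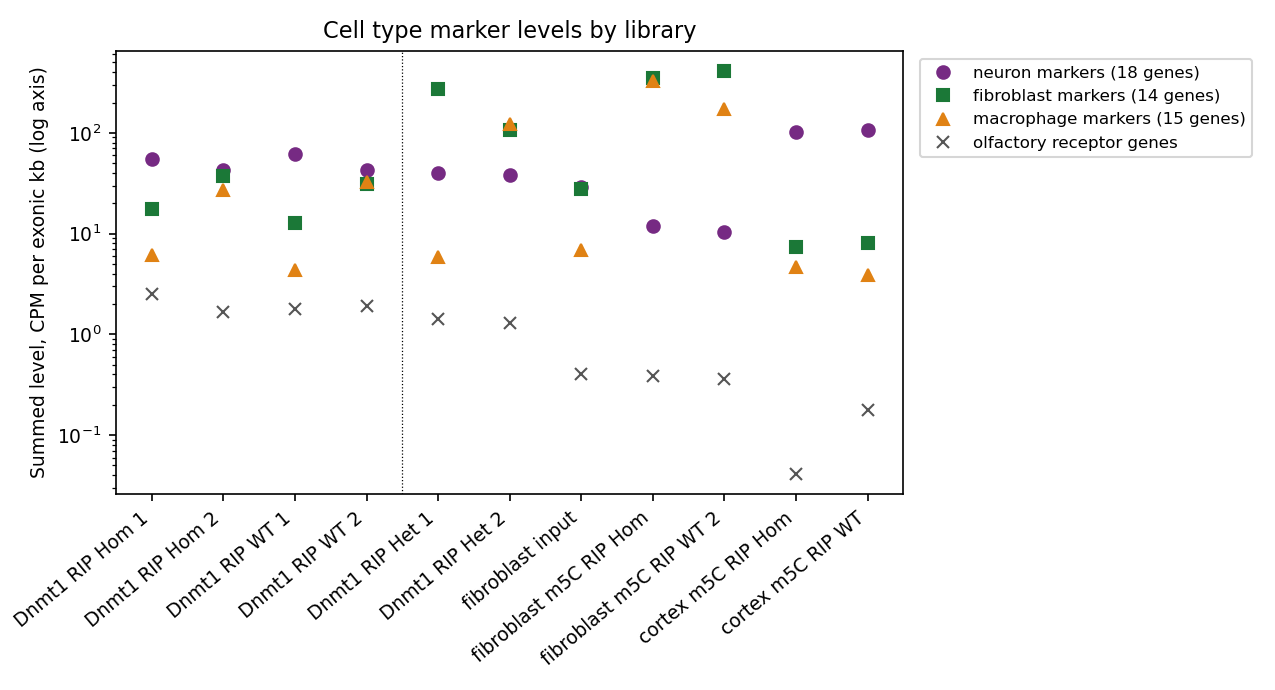
Summed levels of 3 cell type marker lists and of the olfactory receptor genes, as CPM per kilobase of exon on a log axis, in 11 libraries; each symbol is 1 library and the dotted line separates the 4 Hom and WT libraries of the Dnmt1 RIP from the others. Neuron markers lay at 55.5 and 42.7 in Hom, against 62.2 and 43.2 in WT, and fibroblast markers at 17.6 and 37.7 in Hom, against 12.6 and 31.2 in WT.

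Silent genes gave a measure of the background. Olfactory receptor genes, which fibroblasts do not use, were at 2.54 and 1.67 CPM per kilobase in Hom, against 1.77 and 1.90 in WT. The median protein-coding gene was at 5.38 and 4.63 CPM per kilobase in Hom, against 4.37 and 4.58 in WT. The receptor value is the summed CPM over the summed exonic kilobases of the family. The coding value is a median over single genes, so the 2 measures are unlike. Of 1134 receptor genes, 284 and 84 were at 0 in Hom, against 655 and 361 in WT. By these unlike measures the receptor genes stood within 3-fold of the median coding gene in all 4 libraries. The receptor values overlapped between the genotypes. In the m5C libraries of Hom and WT 2 fibroblasts the receptor genes were at 0.386 and 0.361 CPM per kilobase. The median coding gene was at 2.08 and 1.95 there.

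The libraries did not form separate groups by genotype. Across 13480 genes, log2(CPM + 5) correlated at r = 0.769 between the Hom libraries and r = 0.687 between the WT libraries. The closest pair was Hom 2 with WT 2 at r = 0.851. The other pairs of a Hom with a WT library lay at r = 0.723 to 0.731, below the Hom pair and above the WT pair. Genes are not independent replicates, and these correlations share depth and gene length. The share of genes that differed by more than 2-fold was 18.9% between the Hom libraries and 32.2% between the WT libraries, against 12.7% between Hom 2 and WT 2. For the other pairs of a Hom with a WT library it was 23.1% to 29.1%.

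Dnmt1 itself comes first, since its protein is the antibody's target and its gene carries the mutation. Dnmt1 (chromosome 9, 20907209 to 20959888, minus strand, mm10) was at 2472 and 10154 CPM in Hom, against 2728 and 3943 CPM in WT. The Het libraries held 2048 and 2140 CPM, and the fibroblast input 1640 CPM. The genotypes overlapped, since Hom library 1 was below both WT libraries and Hom library 2 above both. The log2 fold change of Hom over WT was 0.94 ± 0.82 (SE, 2 libraries each), with an adjusted p of 1.00 by edgeR's quasi-likelihood test with Benjamini-Hochberg adjustment. Without Hom library 2 the estimate was -0.52, so 1 library decides its direction. The counts do not show where in the gene the mutation lies, so this level does not check the genotype labels.

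No RNA passed the test between Hom and WT in the Dnmt1 RIP. Of 12306 genes past the filter on low counts, edgeR's quasi-likelihood test called 0 genes higher and 0 lower in Hom (0% of those tested) at an adjusted p under 0.05. DESeq2 called 0 as well. With no filter on low counts edgeR called 1 gene of 28972 higher (0.00345%), which is Lars2, and 12 lower (0.0414%), most of them high in WT library 2 alone. With the library number as a replicate block in the 4 libraries it called 0 of 9374 higher and 6 lower (0.064%). At an unadjusted p under 0.05, edgeR gave 146 genes higher (1.19% of those tested) and 122 genes lower in Hom (0.991%), against the 5% that the threshold alone would give over both directions. DESeq2 gave 77 higher (0.626%) and 75 lower (0.609%). The smallest unadjusted p was 0.0020 and the smallest adjusted p 1.00. The median log2 fold change over all genes tested was 0.02, and 5% of genes lay below -0.98 and 5% above 1.18. The median standard error was 0.63, and the common biological coefficient of variation 0.42 with 3 residual degrees of freedom. Both Hom libraries lay above both WT libraries in 2012 genes (16.3%) and below them in 1584 genes (12.9%). The estimate was above 0 in 51.7% of genes.

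**Figure D2:**
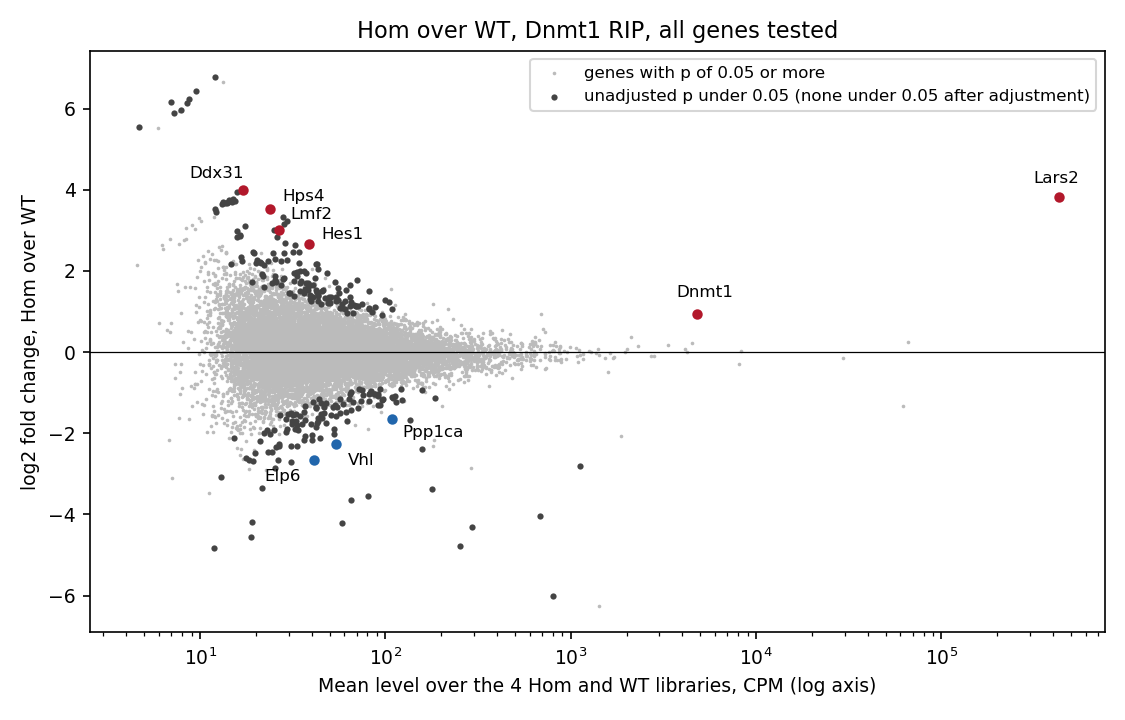
Log2 fold change of Hom over WT (vertical axis) against the mean level over the 4 Hom and WT libraries (CPM, log axis); each point is 1 of 12306 genes, and dark points have an unadjusted p under 0.05. The coloured points are genes named in the text, and none of the points passed the adjusted threshold; Dnmt1 sits at 0.94 and Ppp1ca at -1.64.

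The genes described next are the 15 in each direction with the smallest p among those at 5 CPM or more whose Hom and WT libraries did not overlap. Their values chose them, so they are given as a description and none passed the test. Het values are given for a part of them, and where these lie against Hom and WT is not independent of that choice. Their unadjusted p ran between 0.0026 and 0.0089 for the higher genes and between 0.0020 and 0.014 for the lower ones. In 14 of the 15 higher genes and 14 of the 15 lower genes at least 1 library held fewer than 10 counts.

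The first coding bases of the 3 genes at the head of each direction are shown with CpG dinucleotides, the substrate of Dnmt1 in DNA, in capitals. They are the sense strand of the longest coding transcript in GENCODE M21 (mm10), and each line gives 120 bases from the start codon.
Ppp1ca: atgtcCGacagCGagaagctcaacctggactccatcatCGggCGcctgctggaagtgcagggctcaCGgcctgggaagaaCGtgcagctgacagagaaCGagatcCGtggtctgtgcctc
Vhl: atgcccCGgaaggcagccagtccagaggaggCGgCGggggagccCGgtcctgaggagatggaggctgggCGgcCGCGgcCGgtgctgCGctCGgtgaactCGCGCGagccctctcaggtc
Elp6: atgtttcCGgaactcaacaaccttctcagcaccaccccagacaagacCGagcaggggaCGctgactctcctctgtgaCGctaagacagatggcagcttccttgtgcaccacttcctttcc
Lmf2: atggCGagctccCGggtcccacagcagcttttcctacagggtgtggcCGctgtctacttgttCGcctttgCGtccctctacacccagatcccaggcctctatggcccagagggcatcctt
Ccdc9: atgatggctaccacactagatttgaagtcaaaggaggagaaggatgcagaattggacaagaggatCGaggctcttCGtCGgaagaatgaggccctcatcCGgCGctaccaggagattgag
Hps4: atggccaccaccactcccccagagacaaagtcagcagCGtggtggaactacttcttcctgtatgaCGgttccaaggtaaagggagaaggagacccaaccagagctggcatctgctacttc
The whole coding sequences held 2.73, 6.45 and 3.01 CpG per 100 bases in Ppp1ca, Vhl and Elp6, the lower genes, and 3.61, 4.41 and 2.78 in Lmf2, Ccdc9 and Hps4, the higher genes. The median over 11934 coding genes tested was 3.13 per 100 bases. Vhl had the highest density of the 6 and Ppp1ca the lowest, and the stretch printed for Vhl holds 13 CpG.

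Ppp1ca had the smallest p of the lower genes. Ppp1ca (chromosome 19, 4192065 to 4195420, plus strand), a catalytic subunit of protein phosphatase 1, was at 58.5 and 48.7 CPM in Hom, against 155 and 174 CPM in WT. It had counts of 22 and 58 in Hom, against 30 and 60 in WT, and is the lower gene that rests on the most reads. The Hom libraries lay close together below the WT pair, with means of 53.6 ± 6.89 CPM in Hom and 164 ± 12.9 CPM in WT (SD, n = 2 each), and the log2 fold change was -1.64 ± 0.39 (SE).

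Vhl (chromosome 6, 113623959 to 113631633, plus strand) encodes the subunit of an E3 ubiquitin ligase that recognises hydroxylated hypoxia-inducible factor. It was at 15.9 and 19.3 CPM in Hom, against 114 and 66.5 CPM in WT, from 6 and 23 counts in Hom and 22 and 23 counts in WT. The log2 fold change was -2.27 ± 0.55 (SE). Both Het libraries, at 23.4 and 36.9 CPM, lay between the Hom and the WT values.

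Elp6 (chromosome 9, 110305173 to 110322102, plus strand) encodes a subunit of Elongator, the complex that modifies wobble uridines in transfer RNA. It was at 10.6 and 11.8 CPM in Hom, against 46.6 and 95.5 CPM in WT, with a log2 fold change of -2.67 ± 0.65 (SE). WT library 2 gave about 2 times the level of WT library 1, and the Hom values lay below both.

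Dda1, a component of the CUL4-DDB1 ubiquitin ligases, was at 13.3 and 16.8 CPM in Hom, against 72.5 and 57.9 CPM in WT. Tubgcp2, a subunit of the gamma-tubulin complex that seeds microtubules, was at 15.9 and 26.9 CPM in Hom, against 88.0 and 81.0 CPM in WT. Their log2 fold changes were -2.04 and -1.89, and in both the 2 Het libraries lay between the genotypes. Other lower genes did not follow this order. Tomm7 was at 36.8 and 52.7 CPM in Het, above both WT libraries. Evc2 was at 105 and 61.9 CPM in Het, against 72.5 and 60.8 CPM in WT.

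Fbll1, a fibrillarin-like protein, was at 13.3 and 13.4 CPM in Hom, against 25.9 and 269 CPM in WT. WT library 2 alone held 93 of its counts, against 5 in WT library 1. Trh, the thyrotropin-releasing hormone precursor, had 0 and 2 counts in Hom, against 12 and 4 in WT. Both genes show a large estimate (-3.54 and -4.57) that rests on 1 WT library or on a handful of counts.

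The other lower genes had log2 fold changes between -4.83 and -1.53. They include Gnat1, the rod photoreceptor transducin subunit, at 23.9 and 17.6 CPM in Hom, against 109 and 60.8 CPM in WT. Tomm7, a subunit of the mitochondrial outer membrane import channel, was at 2.66 and 10.1 CPM in Hom, against 36.2 and 34.7 CPM in WT. Hspb8, a small heat shock protein, was at 2.66 and 5.88 CPM in Hom, against 36.2 and 26.0 CPM in WT. Neither Hom value of Hspb8 was above 7 counts. Svip, an inhibitor of endoplasmic reticulum-associated degradation, had an estimate of -2.17, and Evc2, a ciliary protein of Hedgehog signalling, one of -1.53. B3gnt7 (a glycosyltransferase), Eno4 (an enolase of sperm) and Klhdc9 complete the set, at -4.83, -2.46 and -2.86.

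Lmf2 had the smallest p of the higher genes. Lmf2 (chromosome 15, 89351004 to 89355659, minus strand), a lipase maturation factor of the endoplasmic reticulum, was at 58.5 and 37.8 CPM in Hom, against 5.18 and 5.79 CPM in WT. The WT values stand for 1 and 2 counts. The log2 fold change was 3.02 ± 0.76 (SE), and the Het libraries, at 35.1 and 56.7 CPM, were above both WT libraries.

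Hps4 (chromosome 5, 112343083 to 112378414, plus strand), part of the BLOC-3 complex of lysosome-related organelles, was at 47.8 and 41.2 CPM in Hom, against 0 and 5.79 CPM in WT. Ap3s2, a subunit of the AP-3 adaptor that sorts cargo to the same organelles, was at 71.8 and 67.2 CPM in Hom, against 20.7 and 11.6 CPM in WT. Stx7, a SNARE protein of late endosomes, was at 77.1 and 63.9 CPM in Hom, against 15.5 and 17.4 CPM in WT. In all of these the Hom libraries lay together above the WT libraries, with log2 fold changes of 3.52, 2.16 and 2.05.

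Ccdc9 (chromosome 7, 16274042 to 16286795, minus strand), a coiled-coil protein, was at 125 and 94.1 CPM in Hom, against 31.1 and 31.8 CPM in WT, with a log2 fold change of 1.76 ± 0.45 (SE). Strn, the striatin scaffold of protein phosphatase 2A, was at 130 and 110 CPM in Hom, against 51.8 and 34.7 CPM in WT. It is the one higher gene with 10 or more counts in each of the 4 libraries, and its log2 fold change of 1.50 was the lowest of the 15.

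Hes1, the transcriptional repressor induced by Notch, was at 34.6 and 100.0 CPM in Hom, against 5.18 and 14.5 CPM in WT. The second library of each genotype held about 3 times the level of the first, and the groups did not overlap. The log2 fold change was 2.67 ± 0.74 (SE), and the Het libraries, at 127 and 96.2 CPM, were above both WT libraries.

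Ddx31, a nucleolar RNA helicase, was at 34.6 and 31.1 CPM in Hom, against 0 and 2.89 CPM in WT. Snx24, a sorting nexin, had 6 and 26 counts in Hom and no count in either WT library. Its mean of 18.9 CPM in Hom was at least 1.56-fold higher than the mean floor of 12.1 CPM that 3 counts per WT library set, and no fitted fold change is given for it.

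The other higher genes had log2 fold changes between 1.73 and 3.95. Abca9, a lipid transporter of the ABC family, was at 45.2 and 45.4 CPM in Hom, against 10.4 and 8.68 CPM in WT. Nptx2, a neuronal pentraxin released at excitatory synapses, was at 37.2 and 68.1 CPM in Hom, against 15.5 and 5.79 CPM in WT. Stk35, a nuclear kinase, had an estimate of 1.73. Adcy10, the soluble adenylyl cyclase, had an estimate of 3.01 with 0 counts in WT library 1. B3gat2, a glucuronyltransferase of the HNK-1 epitope, and Sec14l5, a Sec14-like lipid-binding protein, had estimates of 3.95 and 2.68.

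For genes with 1 to 3 counts in a genotype the counting error is wide, and the ratio of pooled counts per total is given with its 95% exact interval, which covers counting error only. Lmf2 had a Hom over WT ratio of 7.68 (2.52 to 38.2) and Hps4 one of 11.5 (3.07 to 97.1). Ddx31, with 1 count in WT, had a ratio of 17.2 (2.95 to 693), B3gat2, also with 1, one of 18.9 (3.26 to 761), and Adcy10 one of 7.80 (2.56 to 38.8). In the lower direction Trh had a ratio of 0.043 (0.0048 to 0.183) and B3gnt7 one of 0.0265 (0.00062 to 0.176). All of these intervals lie on one side of 1, yet they leave out the spread between libraries that the test includes. These genes were also picked for small p and for Hom and WT libraries that did not overlap, so the intervals are no support for a difference.

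**Figure D3:**
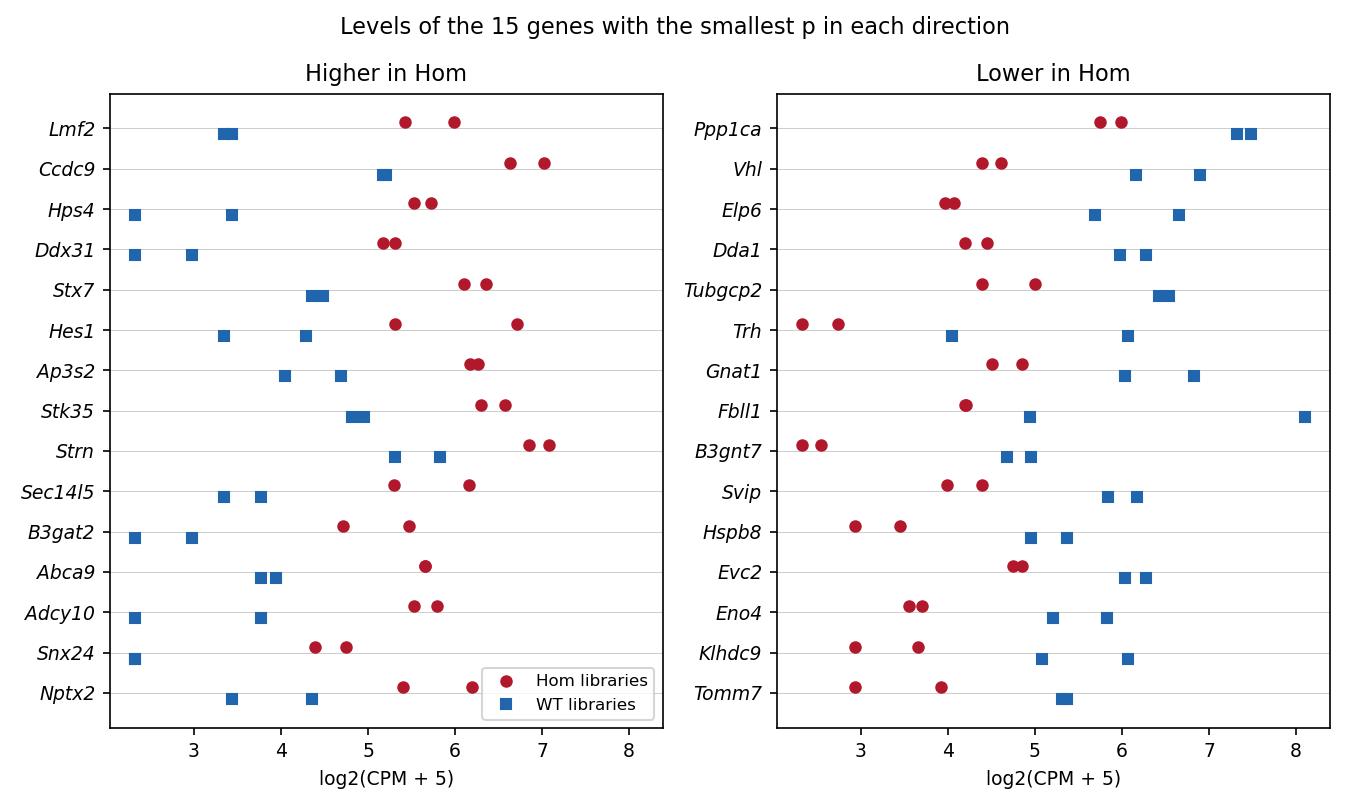
Levels, as log2(CPM + 5), of the 15 genes with the smallest p that were higher in Hom (left) and the 15 that were lower (right); red circles are the 2 Hom libraries and blue squares the 2 WT libraries. The genes were picked because the colours do not overlap; Fbll1 and Trh show WT libraries far apart, and several WT values of the left panel sit at 0 CPM, the left edge.

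The pathways around these genes had medians near 0. Of 47 gene lists, none held a gene that passed the test, and 45 of the 46 lists with 3 or more genes tested had a median log2 fold change within 0.50 of 0. The exception was the smooth muscle and myofibroblast markers at 0.69 over 7 genes, which summed to 234 and 865 CPM in Hom, against 316 and 625 CPM in WT. Its median became -1.61 when Hom library 2 was dropped and 0.01 when WT library 1 was, against 1.66 with WT library 2 dropped. Leaving out 1 of the 4 libraries turned the sign of the median in 39 of the 46 lists, so the direction of most lists rests on single libraries. All genes tested had a median of 0.02. The percentages of non-overlapping genes given above (16.3% with Hom above WT, 12.9% with Hom below) are the background for the counts that follow.

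Of 16 tested genes of the VHL ligase and the hypoxia-inducible factors, 6 had estimates above 0 and 10 below, with a median of -0.05. Both Hom libraries lay above both WT libraries in 5 and below them in Vhl alone. Usp33, a deubiquitinase that VHL targets, was at 197 and 87.4 CPM in Hom, against 72.5 and 43.4 CPM in WT. Rbx1, the RING subunit of the ligase, was at 138 and 69.7 CPM in Hom, against 36.2 and 69.4 CPM in WT, and Cul2, its scaffold, at 58.5 and 46.2 CPM in Hom, against 20.7 and 31.8 CPM in WT. Their estimates of 1.29, 0.86 and 0.91 were of opposite sign to that of Vhl. Of 30 hypoxia-inducible factor targets, 10 were above 0 and 20 below, with a median of -0.06. Pgk1, a glycolytic kinase, was at 63.8 and 94.9 CPM in Hom, against 150 and 136 CPM in WT, with an estimate of -0.81. Slc16a3, the lactate exporter, had an estimate of 1.68 with no count in WT library 1.

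Elongator and the enzymes that finish the wobble uridine modification gave 3 estimates above 0 and 6 below among 9 genes tested, with a median of -0.23. Their summed level was 372 and 367 CPM in Hom, against 466 and 501 CPM in WT, and the genotypes did not overlap. The sum includes Elp6, picked above because its Hom values lay below its WT values, and is not independent of that choice. Apart from Elp6, Dph3, a protein of diphthamide synthesis and electron donor to Elongator, was at 10.6 and 9.24 CPM in Hom, against 20.7 and 55.0 CPM in WT. Ctu2, which thiolates the wobble uridine, was at 10.6 and 14.3 CPM in Hom, against 41.4 and 20.3 CPM in WT. These 2 had 4 counts each in Hom library 1.

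Protein phosphatase 1 subunits gave 13 estimates above 0 and 15 below among 28, with a median of -0.17. Ppp1r1a, an inhibitory subunit, was at 18.6 and 11.8 CPM in Hom, against 56.9 and 46.3 CPM in WT. Ppp1r3b, which directs the phosphatase to glycogen in liver, was at 29.2 and 16.8 CPM in Hom, against 0 and 2.89 CPM in WT, a pooled ratio of 10.7 with a counting interval of 1.78 to 435. A catalytic and an inhibitory subunit were thus lower and a targeting subunit higher by estimate, and the list as a whole was near 0. The gamma-tubulin and centrosome genes had a median of -0.06 over 23, with Tubg1, gamma-tubulin itself, at 98.3 and 47.1 CPM in Hom, against 10.4 and 31.8 CPM in WT. The CUL4-DDB1 genes had a median of -0.02 over 21.

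The lysosome-related organelle genes gave 10 estimates above 0 and 4 below among 14, with a median of 0.29. In 5 of the 14 both Hom libraries lay above both WT libraries, and in 0 below. They include Hps4, Ap3s2 and Ap3b1, the beta subunit of AP-3, at 66.5 and 52.9 CPM in Hom, against 20.7 and 52.1 CPM in WT. The median stayed between 0.17 and 0.54 when any 1 of the 4 libraries was left out. Summed over the list, the level was 848 and 739 CPM in Hom, against 642 and 634 CPM in WT. Hps4 and Ap3s2 were picked above for the same separation, and the list was drawn around such genes. Its count, median and sum are therefore not independent of that choice. Lipases and their maturation factors had a median of 0.04 over 10, and Lipe, the hormone-sensitive lipase, was at 10.6 and 12.6 CPM in Hom, against 62.1 and 31.8 CPM in WT, opposite in direction to Lmf2. Notch pathway genes had a median of 0.13 over 27, with 16 above 0 and 11 below.

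The DNA methylation machinery gave 15 estimates above 0 and 9 below among 24 genes, with a median of 0.08. Dnmt3b, a de novo methyltransferase, was at 58.5 and 34.4 CPM in Hom, against 25.9 and 11.6 CPM in WT, from 5 and 4 counts in WT. Mbd3, of the NuRD complex, was at 114 and 75.6 CPM in Hom, against 41.4 and 63.7 CPM in WT. The estimates were 1.35 and 0.78, and neither gene passed the test. Among 9 enzymes and readers of m5C in RNA the median was 0.02. Nsun2, the main m5C methyltransferase of messenger and transfer RNA, was at 98.3 and 61.3 CPM in Hom, against 36.2 and 57.9 CPM in WT.

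Imprinted and germline genes depend on DNA methylation for their parental bias or their silence. Of 31 imprinted genes tested, 15 had estimates above 0 and 16 below, with a median of -0.10; both Hom libraries were above WT in 3 and below in 7. Mirg, a noncoding RNA of the Dlk1-Dio3 domain, was at 66.5 and 73.9 CPM in Hom, against 202 and 107 CPM in WT, and had an estimate of -1.09. Gnas, which encodes the stimulatory G protein alpha subunit, was at 175 and 99.1 CPM in Hom, against 93.2 and 55.0 CPM in WT. Slc22a3, an organic cation transporter, and Magel2, a neuronal ubiquitin ligase regulator, had estimates of -1.88 and -1.24. Of 34 germline genes on the list, 7 passed the filter, 3 above 0 and 4 below, and in none of the 7 were the genotypes apart.

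Extracellular matrix genes gave 31 estimates above 0 and 12 below among 43 tested, with a median of 0.22, and both Hom libraries were above both WT libraries in 8 and below in 2. Col16a1, a fibril-associated collagen, was at 85.1 and 86.5 CPM in Hom, against 36.2 and 34.7 CPM in WT. Fbn1, the microfibril protein fibrillin 1, was at 101 and 119 CPM in Hom, against 46.6 and 57.9 CPM in WT, and Loxl1, an elastin crosslinking oxidase, at 39.9 and 56.3 CPM in Hom, against 20.7 and 23.1 CPM in WT. The fibroblast markers, which share Col1a1, Col1a2, Col3a1, Dcn and Lum with this list, had 8 of 11 tested above 0 and a median of 0.21, and their part in it was not tested. Single libraries set the direction of the matrix list, whose median was -0.32 when Hom library 2 was left out, -0.22 with WT library 1 left out and 1.27 with WT library 2 left out.

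Genes of growth and stress responses had medians near 0. Immediate early genes had a median of 0.08 over 28, with Klf2 at 23.9 and 57.1 CPM in Hom, against 5.18 and 20.3 CPM in WT, and Fosb, an AP-1 subunit, at 61.1 and 52.9 CPM in Hom, against 15.5 and 28.9 CPM in WT. Cell cycle genes had a median of 0.18 over 32, with 20 above 0. Top2a, the mitotic DNA topoisomerase, was at 74.4 and 110 CPM in Hom, against 31.1 and 46.3 CPM in WT, and the proliferation marker Mki67 at 71.8 and 59.7 CPM in Hom, against 31.1 and 37.6 CPM in WT. Ccnb1, the mitotic cyclin B1, had an estimate of the other sign (-1.26), at 18.6 and 10.9 CPM in Hom, against 36.2 and 31.8 CPM in WT. Aurka, a kinase of the mitotic spindle, had an estimate of -1.20 with overlapping genotypes. Targets of p53 had a median of 0.05 over 19, with Trp53inp1, an autophagy and stress protein, at -1.58 and Sesn2, a stress-induced inhibitor of mTORC1, at 1.43.

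Mitochondrial ribosomal protein genes gave 39 estimates above 0 and 23 below among 62, with a median of 0.30. Both Hom libraries were above both WT libraries in 16 of them and below in 7. The median was 0.05 without Hom library 2 and 0.77 without WT library 2. Mrpl10 was at 53.2 and 52.9 CPM in Hom, against 15.5 and 11.6 CPM in WT, and Mrpl41 at 13.3 and 21.0 CPM in Hom, against 77.6 and 34.7 CPM in WT. Cytosolic ribosomal protein genes gave 26 above 0 and 51 below among 77, with a median of -0.17. Single libraries set its sign too, at -0.86 without Hom library 2, 0.26 without Hom library 1 and 0.54 without WT library 2. Ndufc2, a complex I subunit, was at 26.6 and 40.3 CPM in Hom, against 129 and 63.7 CPM in WT, with an estimate of -1.42. Cox5b, a cytochrome oxidase subunit, was at 154 and 145 CPM in Hom, against 93.2 and 72.3 CPM in WT, and Sdhb, the iron-sulfur subunit of complex II, had an estimate of 1.02. The respiratory chain list they belong to had a median of 0.02 over 72, with both Hom libraries above both WT libraries in 12 and below in 9.

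Hox genes, which keep positional identity in fibroblasts, had a median of -0.33 over 26 tested, with 8 above 0 and 18 below. The median was -0.81 without Hom library 2, -0.12 without Hom library 1 and 0.75 without WT library 2. Hoxc6 was at 21.3 and 34.4 CPM in Hom, against 41.4 and 95.5 CPM in WT, and Hoxd8 had 0 and 5 counts in Hom, against 2 and 13 in WT. Hoxc11 ran the other way by estimate, with 2 and 33 counts in Hom, against 0 and 2 in WT (pooled ratio 6.02, counting interval 1.55 to 51.7). The silent olfactory receptor family, at 34 tested of 1134, had a median of -0.43, which was -0.03 without Hom library 2 and -0.95 without Hom library 1. Of 219 zinc finger genes tested, 125 were above 0, with a median of 0.12; Zfp950 was at 69.1 and 35.3 CPM in Hom, against 0 and 8.68 CPM in WT (pooled ratio 7.80, counting interval 2.56 to 38.8), and Zfp384 at 15.9 and 37.0 CPM in Hom, against 140 and 55.0 CPM in WT.

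Some genes, picked after their values were seen, differed more between library 1 and library 2 of each genotype than between Hom and WT. This did not hold for genes at large. Hom 1 differed by more than 2-fold from Hom 2 in 18.9% of genes and from WT 1 in 27.1%. The Hnrnp and Srsf splicing regulators summed to 4782 and 16933 CPM in Hom, against 5512 and 15843 CPM in WT. Hnrnpa2b1, an RNA-binding splicing regulator, is one of them, at 654 and 6554 CPM in Hom, against 575 and 5674 CPM in WT, while the fibroblast input held 29073 CPM. Ybx1, a cold shock protein that reads m5C in RNA, was at 138 and 2443 CPM in Hom, against 202 and 2329 CPM in WT. The Het libraries held 3293 and 484 CPM of Hnrnpa2b1 and 1434 and 200 CPM of Ybx1, with library 1 the higher, so the order by library number was the opposite there. Ddx5, an RNA helicase, was at 447 and 2495 CPM in Hom, against 481 and 2725 CPM in WT.

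The same difference showed in Fam221b, at 26.6 and 8568 CPM in Hom, against 20.7 and 7971 CPM in WT, and 47284 CPM in the input. The Het libraries held 5077 and 94.9 CPM. In all 4 of these genes the second libraries of Hom and WT stood closer to the input than the first ones, and the genotypes overlapped. The input was 1 shallow library with 95107 counts outside the genes left out of scaling. How well it stands for fibroblast RNA was not tested. Cytosolic ribosomal protein genes summed to 12143 and 22498 CPM in Hom, against 12712 and 23681 CPM in WT, and extracellular matrix genes to 3528 and 6921 CPM in Hom, against 2428 and 5931 CPM in WT.

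Mitochondrial transcripts were split by gene. The cytochrome oxidase gene mt-Co2 was at 39.9 and 331 CPM in Hom, against 41.4 and 437 CPM in WT, and the ATP synthase gene mt-Atp6 at 23.9 and 208 CPM in Hom, against 56.9 and 237 CPM in WT. The complex I gene mt-Nd5 ran the other way, at 2735 and 1183 CPM in Hom, against 2505 and 1403 CPM in WT. Malat1, an abundant nuclear long noncoding RNA, was at 9593 and 7007 CPM in Hom, against 10476 and 5943 CPM in WT. None of these separated Hom from WT.

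**Figure D4:**
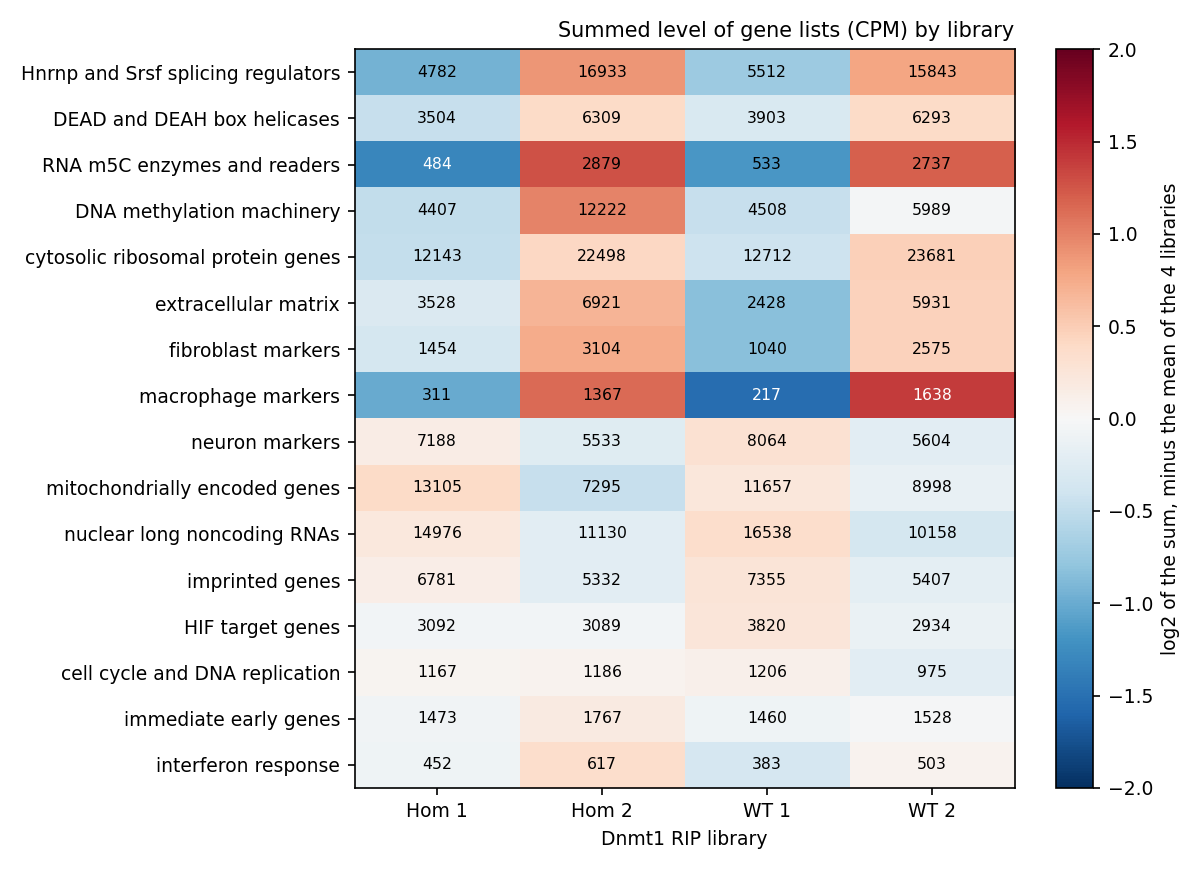
Summed CPM of 16 gene lists in the 2 Hom and the 2 WT libraries of the Dnmt1 RIP; the number in each cell is the sum and its colour the log2 of the sum minus the mean over the 4 libraries. The top row holds the Hnrnp and Srsf genes, at 4782 and 16933 CPM in Hom, against 5512 and 15843 CPM in WT. It changes between library 1 and library 2 of both genotypes and not between Hom and WT. The DNA methylation machinery, which includes Dnmt1, was at 4407 and 12222 CPM in Hom, against 4508 and 5989 CPM in WT.

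Among the genes left out of scaling, Lars2, the mitochondrial leucyl-tRNA synthetase, took 57.65% of all counts in Hom library 1 (95% exact binomial interval 57.55 to 57.75%) and 2.70% in Hom library 2, against 1.03% and 7.07% in WT. Its log2 fold change was 3.81 ± 2.76 (SE), and without Hom library 1 it was -0.78. Gm42418, a noncoding gene, took 0.463% and 5.20% in Hom, against 1.10% and 12.3% in WT. Gm26917 took 1.13% and 2.20% in Hom, against 2.73% and 2.34% in WT, and Gm10800 4.22% and 2.56% in Hom, against 6.18% and 3.71% in WT. The genotypes overlapped in Lars2, in Gm42418 and in Gm10800 by these shares. They did not overlap in Gm26917, but these shares include Lars2 in the total. Scaled to the remaining genes, Gm26917 was at 30814 and 25205 CPM in Hom, against 30725 and 31322 CPM in WT, and overlapped. Intervals cover counting error only, since reads without molecular identifiers are not independent molecules. Counts at these 4 genes need not be RNA of the named genes, since overlapping and antisense genes may share reads. Their source was not tested.

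The m5C RIP of the same study gives levels of the named genes in RNA of labelled fibroblasts, with 1 Hom library. Of its WT libraries only the second is used, since the table of the first was at or above that of Hom in every one of 31017 genes. Of the 15 genes higher in Hom in the Dnmt1 RIP, 6 were higher in Hom than in WT in the m5C RIP and 9 lower, and over all 12306 genes tested 6528 were higher and 5740 lower. Of the 15 lower genes, 3 were higher in Hom and 11 lower. Vhl was at 55.4 CPM in Hom against 31.8 CPM in WT, and Ppp1ca at 171 CPM in Hom against 163 CPM in WT. Both are among the 3 that were higher there. Dda1, at 68.5 CPM in Hom against 90.2 CPM in WT, and Tubgcp2, at 27.7 against 39.5 CPM, are among the 11 that were lower. In cortex, 7 of the 15 higher genes and 9 of the 15 lower genes were above WT in Hom, and over all 12306 genes tested 6010 (48.8%) were above. With 1 library a group, these differences have no replicate check.

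Correlations of the fold change with features of the transcripts were small. Across 11934 coding genes, Spearman's rho between the log2 fold change and the CpG density of the coding sequence was -0.01, and with coding length 0.06. Across 12207 genes it was 0.04 with gene length and below 0.01 with the GC content of the transcript. With the mean level it was -0.13 over 12306 genes. Genes at an unadjusted p under 0.05 had a median coding length of 1754 bases when higher in Hom and 1224 bases when lower, against 1566 bases over all. These are correlations across genes, which are not independent replicates, in 1 set of libraries.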

How the data were processed

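Counts per gene were deposited by the authors, 1 table of 31017 gene symbols per library, with no other per-sample values. The submitters' processing notes name Trim Galore 0.4.1 for trimming, HISAT2 for alignment, mm10 as the genome and featureCounts for counting. No source used here gives their other versions, the gene annotation or how strand was handled, so overlapping and antisense genes may share reads. Both ribosomal RNA depletion and polyA selection are named in the labels' protocols, without saying which library had which. Coordinates and lengths are from GENCODE M21, which matched 30416 symbols.

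The main test was edgeR 4.0.16 (R 4.3.3; filterByExpr with minimum count 10 and minimum total 15, TMM, glmQLFit, glmQLFTest) over the 6 Dnmt1 RIP libraries, contrast Hom minus WT, with totals and TMM factors computed without Lars2, Gm42418, Gm26917 and Gm10800 and a Benjamini-Hochberg threshold of 0.05. The Het libraries help to estimate the spread, and they also entered the filter on low counts and the TMM factors. Standard errors were obtained as log2 fold change over the root of the F statistic. DESeq2 1.42.0, other scalings, no filter, 4 libraries alone, thinning, leaving out each library and a replicate block were the alternatives.

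Named genes are the 15 of smallest p in each direction (mean of 5 CPM or more, Hom and WT not overlapping, no placeholder name), up to 4 of smallest p per gene list, and Dnmt1, Fam221b and the 4 genes above; the text gives a selection of the list genes. Levels of marker genes and of genes that differ between library 1 and library 2 were picked after their values were seen. The members and the lists were chosen with earlier results of these data known. A group of 2 against 2 cannot pass an exact permutation test, so none is given.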

Additional observations from a re-analysis of the deposited data

How the results depend on the processing

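The counts of 0 genes called higher and 0 called lower in Hom held with RLE size factors, with totals alone, with the 4 dominant genes kept in, with DESeq2, with the 4 libraries alone, with thinning and without each library in turn (0 to 0 in each direction). With no filter on low counts, edgeR called 1 gene higher (Lars2) and 12 lower in Hom. Most of the 12 are high in WT library 2 alone, such as Gm10710 with 4 and 44 counts in Hom, against 0 and 1098 in WT. The labels do not pair the libraries by number, and the deviations of same-numbered Hom and WT libraries correlated at r = 0.215; with the number as a replicate block over the 4 libraries, 0 genes were called higher and 6 lower in Hom, and over 6 libraries none. The cause of these calls was not tested. Unadjusted p under 0.05 was reached by 146 genes higher and 122 lower in the main fit, by 502 and 240 with no filter, 77 and 75 with DESeq2, 68 and 75 after thinning, and 97 and 116 in the 4 libraries alone. Leaving out 1 library gave 101 to 765 higher and 66 to 227 lower; the 765 and 227 came without WT library 2 and the 66 without Hom library 1. Of 76 genes named with a fold change, 71 kept their sign in all 13 alternatives that gave a value. Most were chosen by small p, and many for Hom and WT libraries that did not overlap. That choice makes a change of sign unlikely, so the kept signs are no support for a difference. Gm10800 was at -0.024 with the replicate block over 4 libraries and at -0.022 with that over 6, and ranged from -0.94 to 0.90 when 1 library was left out. In the same way Dnmt1 ranged from -0.52 to 1.66, Lars2 from -0.78 to 6.16, Gm42418 from -2.95 to 1.73 and Fam221b from -7.38 to 7.89. Depth limits the small genes, since most named genes have a library with under 10 counts.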
